A study of Mus musculus with 6 samples.

Results

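Transcripts of the proteasome were compared between mouse erythroid cells treated with the CHD4-APR peptide and cells treated with a control peptide. The proteasome genes were the protein-coding genes whose symbol is Psma, Psmb, Psmc, Psmd, Psme, Psmf or Psmg followed by a number, and 50 of the 48709 genes counted met this rule. Of the 50, 47 had enough counts to be tested, and Psma8, Psmb8 and Psmb11 did not. The symbols cover subunits of the core particle (Psma and Psmb), subunits of the regulatory particle (Psmc and most Psmd), activators (Psme), the regulator PI31 (Psmf1) and assembly chaperones (Psmg, with Psmd5, Psmd9 and Psmd10). The symbol Psmc3ip also meets the rule by its letters, but it encodes a cofactor of meiotic recombination and no proteasome protein. It is one of the 50 by the rule, and the main counts are also given without it.

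All 6 libraries came from one line, G1E-ER4. These are mouse erythroid precursors of embryonic stem cell origin, in which GATA-1 is switched on by tamoxifen through an attached estradiol receptor domain. Both groups received tamoxifen, which starts their differentiation. The 3 CTRL libraries came from cells given a Tat-linked peptide made only of alanines, and the 3 CHD4-APR libraries from cells given YWLLAGII-Tat, each at 10 µM from 2 h before tamoxifen. Tamoxifen followed for 28 h, and cells without tamoxifen were not analysed here. The labels give its concentration as 100 nM in the growth protocol and as 100 µM in the design text, and which was used is not settled by the files. The labels do not say that replicates came from separate cultures, so the p-values measure only the spread between these libraries.

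The proteasome degrades proteins tagged with ubiquitin. Its core particle is a barrel of stacked rings, in which alpha subunits form the gate and beta subunits carry the protease sites, and the regulatory particle on its end binds ubiquitin chains, unfolds the substrate with a ring of ATPases and feeds it into the barrel. Ubiquitin-dependent degradation was first worked out in extracts of reticulocytes, and red cell precursors remove much of their protein content through it as they mature. When proteasome activity is low, cells raise the transcription of the subunit genes together through the factor NRF1 (the gene Nfe2l1), which binds antioxidant response elements in their promoters.

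The promoters below hold the letters of that element and belong to catalytic subunits and to the members that passed the test as higher. Psmb5 was the catalytic subunit with the largest decrease before the length and GC correction (after it, Psmb7 had the largest). Psmb6 is another catalytic subunit. Psme4 and Psmc6 passed the test as higher before that correction, and Psmc6 passed as lower after it. Each sequence is from RefSeq (build GRCm38.p6), runs 5′ to 3′ on the gene's own strand from 250 bases before the start site to 50 bases after it, and has the 9-base core TGACNNNGC in capitals, on either strand.
Psmb5, chr14:54617946-54618245, minus strand: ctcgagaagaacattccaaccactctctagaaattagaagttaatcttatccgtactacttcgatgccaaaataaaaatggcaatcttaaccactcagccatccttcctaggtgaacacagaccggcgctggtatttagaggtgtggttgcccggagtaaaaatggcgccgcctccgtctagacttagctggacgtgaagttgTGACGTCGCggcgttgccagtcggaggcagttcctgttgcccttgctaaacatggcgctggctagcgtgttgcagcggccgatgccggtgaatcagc
Psmb6, chr11:70525107-70525406, plus strand: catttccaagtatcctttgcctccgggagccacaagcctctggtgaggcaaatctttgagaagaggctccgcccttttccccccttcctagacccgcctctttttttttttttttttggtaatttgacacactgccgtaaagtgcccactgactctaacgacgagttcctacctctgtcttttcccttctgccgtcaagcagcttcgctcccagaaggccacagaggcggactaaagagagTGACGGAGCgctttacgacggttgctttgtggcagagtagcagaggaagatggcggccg
Psme4, chr11:30771525-30771824, plus strand: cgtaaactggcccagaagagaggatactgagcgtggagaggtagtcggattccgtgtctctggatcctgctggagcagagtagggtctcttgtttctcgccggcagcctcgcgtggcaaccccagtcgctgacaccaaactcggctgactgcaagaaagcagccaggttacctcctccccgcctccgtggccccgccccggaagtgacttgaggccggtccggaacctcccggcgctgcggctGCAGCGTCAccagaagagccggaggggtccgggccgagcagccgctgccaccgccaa
Psmc6, chr14:45329574-45329873, plus strand: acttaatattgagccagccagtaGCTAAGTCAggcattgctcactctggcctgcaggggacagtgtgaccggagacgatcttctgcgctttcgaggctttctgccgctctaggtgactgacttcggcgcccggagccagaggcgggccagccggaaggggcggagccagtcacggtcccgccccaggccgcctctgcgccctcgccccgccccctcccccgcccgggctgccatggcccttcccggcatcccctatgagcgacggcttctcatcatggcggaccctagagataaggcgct
In Psmb5 and Psmb6 the core lay on the coding strand, with its first base 47 and 9 bases before the start site. In Psme4 and Psmc6 it lay on the other strand, 7 and 227 bases before. Among the 42 members with a RefSeq promoter entry, 6 held this core (14.3%): these 4, Psmd9 and Psmd12. It was present in 14.0% of all 27025 genes with an entry and in 17.1% of the tested genes with one, so its share among the members was near the background. Of the 6, 3 passed the test as lower with CHD4-APR and 2 as higher. The ETS motif CCGGAAG was in 15 of the 42 (35.7%), against 9.93% of all genes and 23.2% of those tested. The GATA motif AGATAA was in 3 (7.14%, against 12.7% and 7.77%): Psmc6, Psmd9 and Psmf1. Both strands were searched for each motif, matches of different motifs did not overlap in any member, and a match describes the window only. Psma8, Psmb1, Psmb2, Psmb7, Psmc3, Psmd3, Psmd7 and Psmg2 had no entry.

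The libraries held between 41687482 and 49784177 counts. Erythroid markers were abundant in all of them, with a sum over 14 genes of 72502 to 77808 CPM (counts relative to the library's scaled total) in CTRL and 61910 to 65996 in CHD4-APR libraries, and hemoglobin genes took 6.04 to 6.45% of counts in CTRL and 5.11 to 5.44% in CHD4-APR libraries. Markers of other cells were low, with sums of at most 48.8 CPM for megakaryocytes, 9.75 for macrophages, 0.810 for granulocytes and mast cells and 0.604 for lymphocytes, and all 5 fibroblast markers were at 0. Of 12722 genes tested with edgeR's quasi-likelihood test, 4871 (38.3%) passed an FDR (Benjamini-Hochberg adjusted p) of 0.05, 2270 lower and 2601 higher with CHD4-APR. The spread between replicates was small (common biological coefficient of variation 0.0518), and the smallest change of a member that passed was 8.05% (Psma6).

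Most proteasome transcripts were lower in CHD4-APR-treated cells, by small amounts. Of the 47 members tested, 29 passed as lower, where 17.8% of all genes tested did, and Psme4 and Psmc6 passed as higher, where 20.4% of all genes did. Without Psmc3ip, 28 of 46 passed as lower. The median log2 fold change of the members was -0.17 (11.0% lower), beside -0.012 over all genes tested, and 40 of the 47 lay below 0. The CTRL and CHD4-APR libraries did not overlap for 35 members that were lower and 3 that were higher, and 25.0% of all genes tested separated in each direction. The changes ranged from -0.36 for Psmc3ip to 0.39 for Psme4, so every member stayed under 1.5-fold. The hemoglobin share and the erythroid marker sum, which hemoglobin genes dominate, were also lower in every CHD4-APR library. Of the 14 erythroid markers, 6 passed as lower and 3 as higher, and 3 and 3 after the length and GC correction described further on (median -0.013). Their part in this result was not tested. In these bulk libraries, fewer cells of a type and less RNA per cell cannot be told apart.

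**Figure D1:**
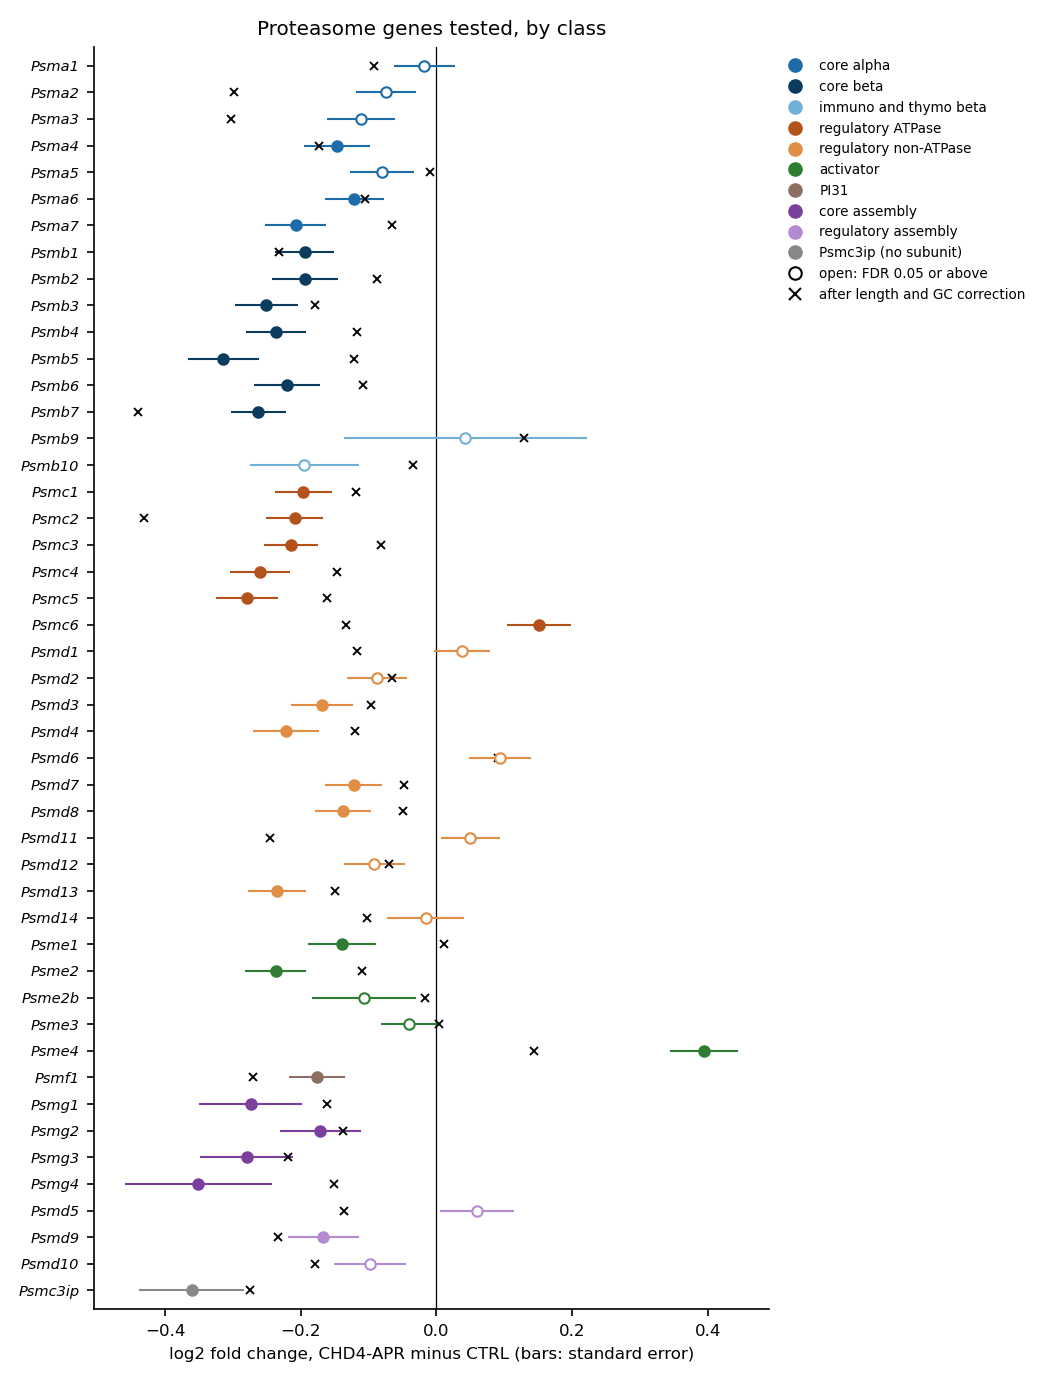
Log2 fold change (CHD4-APR minus CTRL, horizontal axis) of each of the 47 tested proteasome genes, grouped by class, with bars for the standard error. Filled points passed an FDR of 0.05, open points did not, and crosses are the values after the length and GC correction, which lie below 0 for 42 of the 47, including Psmc6 but not Psme4.

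The members' summed level gave the same picture library by library. It was 7043, 6914 and 6764 normalized CPM in CTRL replicates 1 to 3 and 6251, 6275 and 6395 in CHD4-APR replicates 1 to 3, or 6907 ± 139.5 against 6307 ± 76.9 (mean ± SD, n = 3 each). Every CHD4-APR library was below every CTRL library. As a share of all counts, without the scaling between libraries, the members took 0.6815, 0.686 and 0.672% in CTRL and 0.638, 0.639 and 0.644% in CHD4-APR libraries, again with no overlap. The highest CTRL library was replicate 1 in the scaled sum and replicate 2 in this share. With each library left out in turn, the number that passed as lower was between 22 and 27, and the median was between -0.18 and -0.15. Of the 31 calls, 22 were kept in all 6 of these fits.

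Levels per length differed between subunits of the same particle. On the scale of CPM per kilobase of the principal transcript, in CTRL libraries, the tested alpha subunits lay between 36.5 (Psma3) and 234 (Psma7), the constitutive beta subunits between 95.3 (Psmb5) and 263 (Psmb4), the ATPases between 58.4 (Psmc6) and 241 (Psmc3) and the other regulatory subunits between 38.1 (Psmd11) and 426 (Psmd4). Psmd4, a ubiquitin receptor of the regulatory particle, had the highest level in both groups (426 ± 28.8 and 365 ± 7.89, SD, n = 3). Psmb4 (263 ± 11.7), Psmc3 (241 ± 4.24) and Psma7 (234 ± 9.35) followed in CTRL libraries, and the last 2 did not differ beyond their spread. The assembly chaperones Psmg1 to Psmg4 were lower, between 10.0 and 24.7. The subunits of specialized proteasomes were lower still: Psmb10 had 8.18 ± 0.344, Psmb9 1.20 ± 0.137 and Psmb8 0.0533 ± 0.0364. Psma8, an alpha subunit of germ cells, had at most 1 count in any library, and Psmb11, a subunit of the thymus, at most 2.

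**Figure D2:**
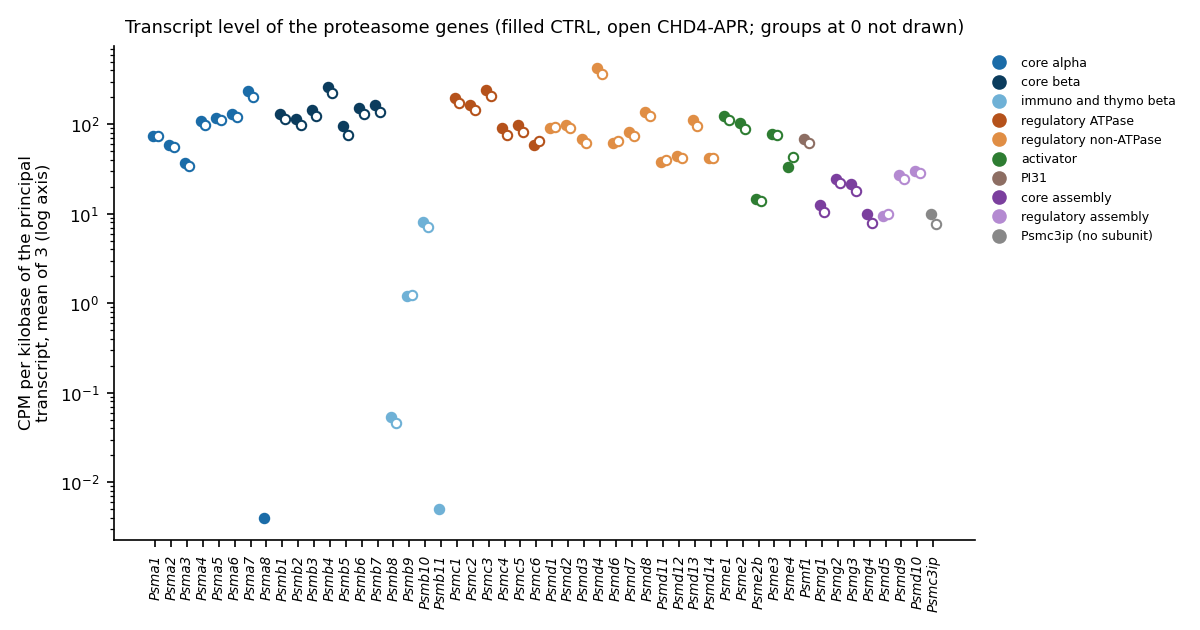
Level of each of the 50 proteasome genes in CPM per kilobase of the principal transcript (vertical log axis, mean of 3 libraries), with filled points for CTRL and open points for CHD4-APR. Psmd4 is highest at 426 and 365, the assembly chaperones lie lower, and Psmb8, Psmb11 and Psma8 are near or at 0, where a group at 0 is not drawn.

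Among the alpha subunits of the core particle, 3 of the 7 tested passed as lower, where 17.8% of all genes tested did. The other 4 did not pass, and the median log2 fold change of the 7 was -0.11. Psma7, on chromosome 2 from 180036374 to 180042433 (GRCm38), had 223, 210 and 207 normalized CPM in the CTRL and 180, 187 and 189 in the CHD4-APR libraries, with no overlap. The decrease was 13.4% (log2 fold change -0.21, standard error 0.044, FDR 0.00161 by edgeR), and the call was lost with the length and GC correction (-0.066, FDR 0.212). Psma4, on chromosome 9 from 54950790 to 54958030, had 131, 129 and 121 against 110, 113 and 121, so that its highest CHD4-APR library came just under its lowest CTRL library (log2 fold change -0.15, standard error 0.048, FDR 0.0247 by edgeR). Psma6 fell by 0.12 on the log2 scale (FDR 0.0389 by edgeR). Psma1, Psma2, Psma3 and Psma5 had log2 fold changes from -0.11 to -0.018, and 3 of these 4 overlapped between the groups. Psma4 did not pass without CTRL replicate 2 (-0.14, FDR 0.0551), CHD4-APR replicate 1 (-0.11, 0.121) or CHD4-APR replicate 2 (-0.13, 0.104), and Psma6 without CTRL replicate 2 (-0.10, 0.104) or CHD4-APR replicates 1, 2 and 3 (-0.10, 0.141; -0.12, 0.110; -0.12, 0.0911).

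All 7 constitutive beta subunits, Psmb1 to Psmb7, passed as lower, where 17.8% of all genes tested did (median log2 fold change -0.24, or 15.1% lower). None of them overlapped between the groups, and 25.0% of all genes tested separated downward. With the length and GC correction the median was -0.12, and Psmb2 (-0.088, FDR 0.128 by edgeR) and Psmb6 (-0.11, 0.0511) did not pass. With the same correction on the principal transcript, Psmb2 (-0.065, FDR 0.276 by edgeR), Psmb3 (-0.070, 0.182) and Psmb6 (-0.024, 0.687) did not pass. Psmb5 carries the chymotrypsin-like site, lies on chromosome 14 from 54614119 to 54618022, and had 92.4, 82.3 and 82.4 normalized CPM in the CTRL and 68.4, 67.9 and 70.4 in the CHD4-APR libraries. The CHD4-APR libraries lay close together, and CTRL replicate 1 stood highest (log2 fold change -0.31, standard error 0.052, FDR 2.23e-04 by edgeR). Psmb5 was at -0.122 with the length and GC correction and at -0.124 with that on the principal transcript, and passed as lower in both. Psmb6, the caspase-like subunit on chromosome 11 from 70525367 to 70527858, had 128, 116 and 118 against 104, 100.1 and 107 (log2 fold change -0.22, standard error 0.048, FDR 0.00193 by edgeR). Psmb7, the trypsin-like subunit on chromosome 2 from 38588036 to 38644087, had 195, 191 and 192 against 161, 159 and 161, with little spread in either group (log2 fold change -0.26, standard error 0.041, FDR 1.14e-04 by edgeR). It was at -0.44 with the length and GC correction and at -0.19 with that on the principal transcript, and passed as lower in both. The structural subunits Psmb1, Psmb2, Psmb3 and Psmb4 had log2 fold changes between -0.25 and -0.19. Exons of 15 of the 50 members overlap another gene. Those of Psmb7 share 11.8% of their bases with Nek6 on the other strand, those of Psmd13 share 10.1% with Sirt3 on the other strand, and those of Psmb5 share 12.1% with Mir686. The library kit does not mark strand and the setting of the counting was not given in the sources used here, so reads of these overlaps cannot be told apart.

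The inducible beta subunits replace the constitutive ones in the immunoproteasome, which cells make in response to interferon. Psmb10, the counterpart of Psmb7, had 11.2, 10.7 and 10.3 normalized CPM in the CTRL and 9.64, 9.15 and 9.32 in the CHD4-APR libraries. The groups did not overlap, but the difference did not pass (log2 fold change -0.19, standard error 0.081, FDR 0.0668 by edgeR). Psmb9, the counterpart of Psmb6, had 1.82, 1.60 and 1.45 against 1.77, 1.64 and 1.61, which overlapped (log2 fold change 0.043, standard error 0.18, FDR 0.878 by edgeR). Psmb8, the counterpart of Psmb5, had 4, 7 and 1 counts in the CTRL and 4, 4 and 2 in the CHD4-APR libraries and was not tested. Per kilobase of exons, the 3 inducible subunits made up 3.02, 3.12 and 2.96% of the transcripts of the 6 catalytic subunits in CTRL libraries and 3.34, 3.22 and 3.14% in CHD4-APR libraries, 3.03 ± 0.0817 against 3.23 ± 0.0997 (SD, n = 3). Every CHD4-APR library was above every CTRL library, while the inducible transcripts themselves did not pass as higher. Of 7 tested genes of antigen processing that accompany the immunoproteasome, Erap1 (log2 fold change 0.39, FDR 0.00389 by edgeR) and Tapbp (0.13, 0.0239) rose and Tap2 (-0.16, 0.0384) fell, beside 20.4% and 17.8% of all genes tested. After the length and GC correction Tapbp passed as higher (0.26), and Erap1 (0.10) and Tap2 (-0.036) did not pass, while B2m passed as lower (-0.15). Before it, Tapbp did not pass without CTRL replicates 2 and 3 (0.11, FDR 0.0696; 0.12, 0.1001) or CHD4-APR replicates 1, 2 and 3 (0.13, 0.0654; 0.14, 0.0738; 0.14, 0.0515), nor Tap2 without CTRL replicates 1 and 3 (-0.11, 0.128; -0.16, 0.0931) or CHD4-APR replicates 2 and 3 (-0.11, 0.208; -0.14, 0.115).

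**Figure D3:**
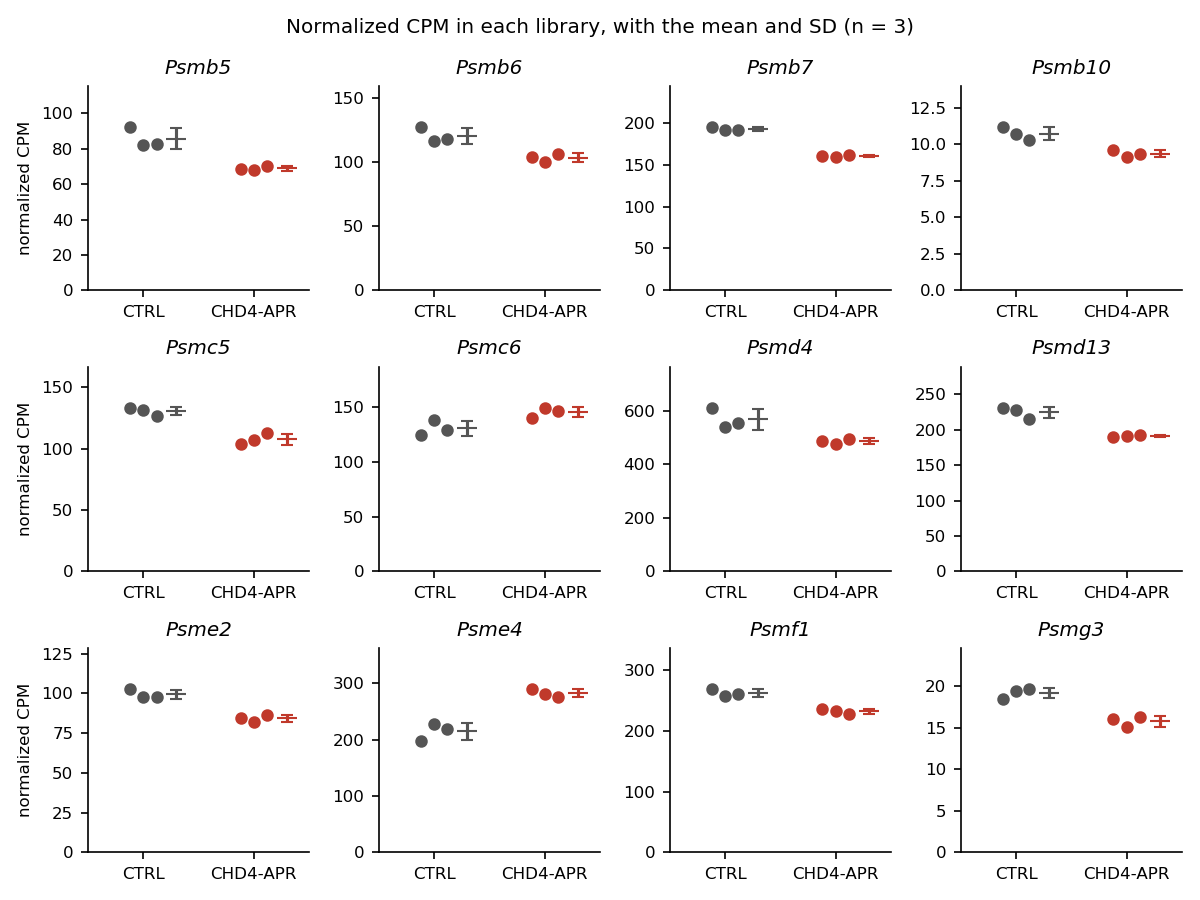
Normalized CPM of 12 proteasome genes in each CTRL and CHD4-APR library (points), with the mean and SD of 3 libraries beside them, on axes that start at 0. The 12 were picked from the 47 tested and include none whose groups overlapped, such as Psma1, Psmd14 and Psme3. The groups therefore do not overlap in any panel, where 25.0% of all genes tested separated in each direction. CHD4-APR libraries are higher in the panels of Psmc6 (140 to 149 against 125 to 138) and Psme4 (276 to 290 against 198 to 228).

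The 6 ATPases of the regulatory particle, Psmc1 to Psmc6, all passed, 5 as lower and Psmc6 as higher, with a median of -0.21. Over all genes tested, 17.8% passed as lower and 20.4% as higher, and 25.0% separated in each direction. Psmc5, on chromosome 11 from 106256154 to 106263120, had 133, 132 and 127 normalized CPM in the CTRL and 104, 107 and 113 in the CHD4-APR libraries (log2 fold change -0.28, standard error 0.046, FDR 2.04e-04 by edgeR). Psmc4, on chromosome 7 from 28041707 to 28050101, had 136, 131 and 130 against 107, 110.1 and 114 (log2 fold change -0.26, standard error 0.044, FDR 2.66e-04 by edgeR). For both genes every CHD4-APR library was below every CTRL library, as it was for Psmc1, Psmc2 and Psmc3, with log2 fold changes between -0.21 and -0.20. Psmc6, on chromosome 14 from 45329788 to 45349705, had 125, 138 and 129 in the CTRL and 140.1, 149 and 146 in the CHD4-APR libraries. Its groups did not overlap in the opposite direction (log2 fold change 0.15, standard error 0.048, FDR 0.0194 by edgeR). It did not pass without CTRL replicate 3 (0.14, FDR 0.0784), CHD4-APR replicate 2 (0.13, 0.0935) or CHD4-APR replicate 3 (0.15, 0.0507). Its transcript had the lowest GC content of the tested members (37.0%), and after the length and GC correction it passed as lower, at -0.13 (FDR 0.0137 by edgeR).

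Of the 11 other subunits of the regulatory particle, 5 passed as lower (Psmd3, Psmd4, Psmd7, Psmd8 and Psmd13), where 17.8% of all genes tested did. The other 6 did not pass, and the median of the 11 was -0.092. Psmd13, a subunit of the lid on chromosome 7 from 140881968 to 140898643, had 231, 228 and 216 normalized CPM in the CTRL and 190, 191 and 192 in the CHD4-APR libraries (log2 fold change -0.24, standard error 0.043, FDR 4.33e-04 by edgeR). The ubiquitin receptor Psmd4, on chromosome 3 from 95032694 to 95042614, had 610, 537 and 553 against 488, 475 and 496, where CTRL replicate 1 stood above the rest (log2 fold change -0.22, standard error 0.049, FDR 0.00194 by edgeR). With the correction on the principal transcript Psmd4 was at -0.082 and did not pass (FDR 0.130 by edgeR). The scaffold subunits Psmd1 and Psmd2 had log2 fold changes of 0.037 (FDR 0.512 by edgeR) and -0.087 (0.130). Psmd14, the deubiquitinase of the lid, had -0.016 (FDR 0.854 by edgeR) and overlapped between the groups. Psmd6, another lid subunit, had 82.4, 87.0 and 84.9 against 88.4, 90.7 and 92.3, which separated upward without passing (log2 fold change 0.094, FDR 0.116 by edgeR). Psmd7 did not pass without CTRL replicate 3 (-0.12, FDR 0.0841) or CHD4-APR replicates 1, 2 and 3 (-0.11, 0.106; -0.12, 0.122; -0.13, 0.0679), nor did Psmd8 without CHD4-APR replicate 2 (-0.13, 0.0724) or 3 (-0.13, 0.0746).

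Set side by side, the core particle had 10 of 16 tested genes lower and a median log2 fold change of -0.19, and the regulatory particle had 10 of 17 lower, 1 higher and a median of -0.14. The difference between these medians, core minus regulatory, was -0.056, against 0.0044 once length and GC content were corrected for. Both shares of lower genes were above the 17.8% of all genes tested. The summed level of the constitutive core subunits was 2135 ± 59.7 normalized CPM in CTRL and 1886 ± 38.7 in CHD4-APR libraries, and that of the regulatory subunits 3593 ± 67.5 and 3261 ± 44.9 (SD, n = 3). Per kilobase of exons, the ratio of core to regulatory transcripts was 0.840, 0.838 and 0.824 in CTRL and 0.819, 0.824 and 0.823 in CHD4-APR libraries. The groups overlapped, since the ratio of CTRL replicate 3 lay just under that of CHD4-APR replicate 2.

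The activators, which dock on the core particle in place of the regulatory particle, went in both directions. Psme4 encodes PA200, a large nuclear activator, and lies on chromosome 11 from 30771726 to 30880361. It had 198, 228 and 218 normalized CPM in the CTRL and 290.2, 281 and 276 in the CHD4-APR libraries, 31.5% higher (log2 fold change 0.39, standard error 0.050, FDR 1.99e-05 by edgeR). Before the length and GC correction this was the largest change of any member in either direction, and it passed with each library left out. Psme4 also has the longest exonic sequence of the members at 8382 bases, and the length and GC correction left a log2 fold change of 0.14 (FDR 0.00789 by edgeR). With the same correction on its principal transcript it was 0.065 and did not pass (FDR 0.183 by edgeR). Psme1 and Psme2 encode the subunits of the interferon-inducible activator PA28 and lie close together on chromosome 14. Psme2 had 103, 97.8 and 98.1 against 84.5, 82.3 and 86.6 (log2 fold change -0.24, standard error 0.046, FDR 6.93e-04 by edgeR), and it was at -0.11 with the correction (0.0396) and -0.092 with that on the principal transcript (0.0827). Psme1 had 146, 129 and 133 against 124, 120.3 and 126 (log2 fold change -0.14, standard error 0.050, FDR 0.0373 by edgeR). Psme1 did not pass without CTRL replicate 1 (-0.085, FDR 0.129), CTRL replicate 3 (-0.16, 0.0620) or CHD4-APR replicates 1, 2 and 3 (-0.14, 0.0874; -0.12, 0.162; -0.15, 0.0684), and its value after the correction was 0.011 (0.870). Psme3, the nuclear relative of PA28, had 211, 210.1 and 203 against 206, 199 and 202, which overlapped (log2 fold change -0.041, FDR 0.470 by edgeR). Psme2b, an intronless copy of Psme2 whose reads may be split between the loci, had 12.7, 12.5 and 12.0 against 11.7, 10.9 and 11.9 (log2 fold change -0.11, FDR 0.296 by edgeR).

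Psmf1, the regulator PI31 on chromosome 2 from 151715812 to 151744186, had 269.5, 258 and 261 normalized CPM in the CTRL and 237, 233 and 228 in the CHD4-APR libraries (log2 fold change -0.18, standard error 0.041, FDR 0.00313 by edgeR). It passed as lower in all 18 alternative fits. All 4 chaperones of core assembly passed as lower, where 17.8% of all genes tested did, with a median of -0.28. With the length and GC correction the median was -0.16 and 1 of the 4 passed, Psmg3, where 15.8% of all genes passed as lower. Psmg4, on chromosome 13 from 34162964 to 34178173, had 5.90, 5.75 and 5.05 against 4.34, 4.47 and 4.30 (log2 fold change -0.35, standard error 0.11, FDR 0.0171 by edgeR). Psmg3, on chromosome 5 from 139823592 to 139826885, had 18.5, 19.5 and 19.7 against 16.1, 15.1 and 16.3 (log2 fold change -0.28, standard error 0.069, FDR 0.00415 by edgeR). Both separated the groups, and Psmg1 and Psmg2 fell by 0.27 and 0.17 on the log2 scale (FDR 0.00946 and 0.0322 by edgeR), and were at -0.16 (0.118) and -0.14 (0.0765) with that correction. Psmg4 did not pass without CTRL replicate 1 (-0.31, FDR 0.0544) or CHD4-APR replicate 3 (-0.33, 0.0532), nor with the length and GC correction (-0.15, 0.325). Psmg3 did not pass with the correction on the principal transcript (-0.092, 0.359). Psmg2 did not pass without CTRL replicate 2 (-0.16, 0.0696), CTRL replicate 3 (-0.17, 0.0828) or CHD4-APR replicates 1, 2 and 3 (-0.18, 0.0555; -0.17, 0.0946; -0.15, 0.127).

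Of the chaperones of regulatory particle assembly, Psmd9 passed as lower, with 72.3, 72.0 and 69.2 normalized CPM in the CTRL and 60.4, 61.8 and 67.8 in the CHD4-APR libraries (log2 fold change -0.17, standard error 0.052, FDR 0.0187 by edgeR). It did not pass without CHD4-APR replicate 1 (-0.13, FDR 0.0980) or 2 (-0.15, 0.0933), and 25.5% of its exonic bases are shared with the noncoding gene Gm26745 on the other strand. Psmd5 (0.060, FDR 0.424 by edgeR) and Psmd10, also called gankyrin (-0.098, 0.164), did not pass. Psmc3ip, on chromosome 11 from 101091823 to 101095436, had 13.5, 12.7 and 12.2 against 9.93, 9.92 and 9.99 (log2 fold change -0.36, standard error 0.078, FDR 0.00168 by edgeR), and 21.2% of its exonic bases are shared with Mlx.

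The members' changes followed the exonic length of their genes and the GC content of their longest transcripts, as did those of genes in general. Across the 47 members the log2 fold change had a correlation of r = -0.51 (Spearman's rho -0.54) with GC content and of r = 0.53 (rho 0.46) with log exonic length, and across the 12677 tested genes with both values it had -0.40 (rho -0.46) and 0.31 (rho 0.41). These are descriptions over genes measured in the same 6 libraries. The median exonic length was 2261 bases for the members that passed as lower, 2951 for those that did not pass and 5940 for the 2 that passed as higher, and their median GC contents were 51.5%, 47.0% and 40.4%. Over all tested genes, the tenth with the lowest GC content had a median log2 fold change of 0.25 and the tenth with the highest had -0.16.

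Each library's trend with length and GC content was removed in an alternative fit. Across the members the correlation with GC content was then r = 0.41 (rho 0.36), opposite in sign to that before the correction, beside r = -0.019 over all genes, and it was 0.30 with the correction on the principal transcript, given below. With the length and GC correction, 24 members passed as lower, where 15.8% of all genes did, and Psme4 passed as higher, where 11.9% did, with a median of -0.12 and 42 of 47 below 0. Of the 29, 18 passed as lower in both fits, 11 passed before the correction alone, and 6 passed as lower after it alone (Psma2, Psma3, Psmc6, Psmd1, Psmd10 and Psmd11). The 11 were Psma7, Psmb2, Psmb6, Psmc3, Psmd3, Psmd7, Psmd8, Psme1, Psmg1, Psmg2 and Psmg4. Lower calls numbered 4 of 7 for the alpha and 5 of 7 for the beta subunits, 5 of 6 for the ATPases, 4 of 11 for the other regulatory subunits and 1 of 4 for the core chaperones. The ATPase count includes Psmc6. Psma2 and Psma3, which had not passed before, were at -0.30 (FDR 6.2e-05 and 1.45e-04 by edgeR). When length and GC content were taken from the principal transcript alone, an alternative added after seeing the data, 18 members passed as lower, where 13.0% of all genes did, and Psmd6 passed as higher, where 10.1% did. The median was then -0.092, and 43 of 47 lay below 0. The 12 members that passed as lower in all 3 fits were Psma4, Psmb1, Psmb4, Psmb5, Psmb7, Psmc1, Psmc2, Psmc4, Psmc5, Psmd13, Psmf1 and Psmc3ip.

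**Figure D4:**
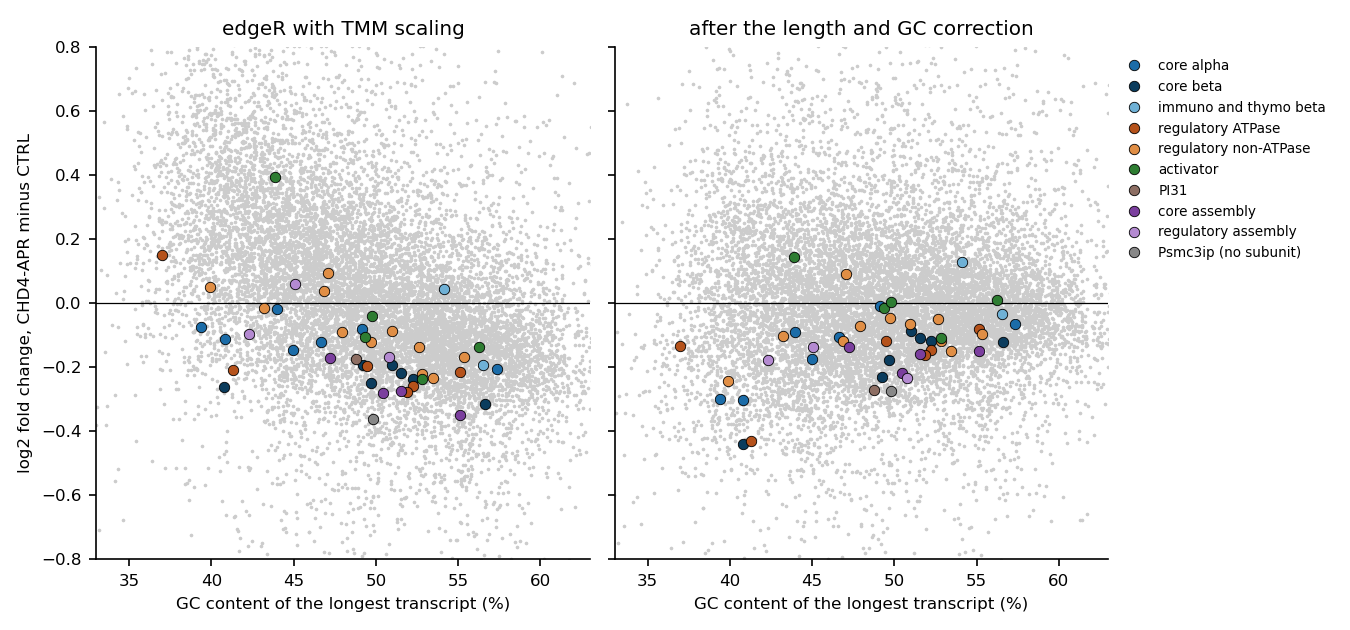
Log2 fold change (CHD4-APR minus CTRL, vertical axis) against the GC content of the longest transcript (horizontal axis, %), before (left) and after (right) the length and GC correction, with proteasome genes colored by class over all other tested genes in gray. The downward slope of the gray points at left (r = -0.40) is flat at right (r = -0.019), where 42 of the 47 proteasome genes lie below 0 and slope upward among themselves (r = 0.41). Genes outside the axis limits are not drawn.

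Some proteasome proteins have symbols outside the rule. Of 12 tested, 4 passed as lower and 4 as higher, beside 17.8% and 20.4% of all genes, with a median of -0.080. Pomp, the maturation factor of the core particle, had 110.02, 106 and 104 normalized CPM in the CTRL and 87.7, 88.4 and 92.7 in the CHD4-APR libraries (log2 fold change -0.25, standard error 0.046, FDR 4.24e-04 by edgeR). Sem1, a small subunit of the lid, had -0.19 (FDR 0.00526 by edgeR). The ubiquitin ligase Ube3c, which binds the proteasome, had 0.27 (FDR 6.79e-04 by edgeR), and Zfand5, a proteasome-binding zinc finger protein, had 0.22 (0.00106). After the length and GC correction 8 of the 12 passed as lower, where 15.8% of all genes did, with a median of -0.17, and Ube3c no longer passed (0.079), while Zfand5 passed as lower (-0.13). Usp14, a deubiquitinase of the proteasome, and the adaptor Ecpas, both named after their values were seen, went from 0.14 and 0.16 to -0.21 and -0.13. Before the correction neither passed without CTRL replicate 3 (0.12, FDR 0.0811, and 0.14, 0.0521) or CHD4-APR replicate 2 (0.14, 0.0617, and 0.14, 0.0631).

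Of 11 tested genes of the NRF1 pathway, which raises proteasome transcription, 3 passed as higher, where 20.4% of all genes did, and the other 8 did not pass. Their median was 0.12, and it was 0.064 with the length and GC correction and 0.020 with that on the principal transcript. Nfe2l1 itself, the gene of the NRF1 factor, had 115, 106 and 108 normalized CPM in the CTRL and 127, 118 and 120.3 in the CHD4-APR libraries, with no overlap (log2 fold change 0.15, standard error 0.048, FDR 0.0241 by edgeR). It did not pass without CTRL replicate 2 (0.12, FDR 0.0736), CTRL replicate 3 (0.13, 0.102) or CHD4-APR replicate 1 (0.12, 0.111). Bach1, a repressor at the same elements, had 94.6, 105 and 103 against 140, 132 and 125 (log2 fold change 0.39, standard error 0.053, FDR 4.32e-05 by edgeR), and Sel1l, a component of the membrane complex that turns NRF1 over, had 0.24 (FDR 0.00112 by edgeR). Nfe2l1 and Bach1 also passed as higher after the length and GC correction (0.19 and 0.26), as did Mafk (0.16), a partner of NRF1, and Sel1l did not (0.084). With the correction on the principal transcript the same 3 passed as higher and Ddi2, the protease that activates NRF1, passed as lower (-0.15). The activity of NRF1 depends on its processing as a protein, which transcripts do not measure.

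Other large complexes gave a measure of how common such a shift was. The COP9 signalosome, built like the lid of the regulatory particle, had 3 of 10 genes lower and 1 higher with a median of -0.099, beside 17.8% lower and 20.4% higher over all genes tested. Cops5 and Cops6 did not pass without CHD4-APR replicate 1 (FDR 0.163 and 0.0641 by edgeR) or CHD4-APR replicate 2 (0.111 and 0.0589). Cops5 also did not pass without CTRL replicate 2 (0.0772) or 3 (0.0801). The translation factor eIF3, which shares the architecture of the lid, had 6 of 14 lower and 1 higher with a median of -0.079. Eif3b, Eif3d, Eif3f and Eif3h did not pass without CHD4-APR replicate 2 (FDR 0.152, 0.0847, 0.137 and 0.137 by edgeR), CHD4-APR replicate 1 or CTRL replicate 1. The chaperonin CCT had 1 of 8 lower with a median of -0.023. After the length and GC correction the medians of COP9, eIF3 and CCT were -0.077, -0.10 and -0.098, beside -0.12 for the proteasome genes. Lower calls then numbered 3, 7 and 4, beside 15.8% of all genes. With the correction on the principal transcript the medians were -0.031, -0.048 and -0.058, beside -0.092 for the proteasome genes. Lower calls were then 2, 4 and 2, beside 13.0% of all genes. The difference between these complexes and the proteasome was not tested.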

How the data were processed

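RNA was sequenced from 6 libraries of G1E-ER4 cells, 3 per peptide, made from polyA RNA with a kit that does not mark strand. The authors trimmed reads with Cutadapt, aligned them to GRCm38 with STAR 2.7.10a and used featureCounts for the counts of each Ensembl gene, which they deposited without normalization. The handling of reads that map to several places was not given in the sources used here. Another 2 columns of the table match no sample and were not used. Genes were named with GENCODE M21 on GRCm38.

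Genes were filtered with filterByExpr, scaled by TMM and tested on all 6 libraries with edgeR 4.0.16 (R 4.3.3, quasi-likelihood test, two-sided, peptide as the only factor), with the FDR over all 12722 genes tested. Normalized CPM uses TMM library sizes. The study's methods name DESeq2, which was run as an alternative (1.42.0), with limma 3.58.1 (voom), other scalings, filters, a replicate block, protein-coding genes only, and offsets from loess trends (span 0.3) on exonic length and GC content. Exonic length covered all exons of a gene, and GC content was that of its longest transcript, except in the correction on the principal transcript. The scripts were tested on simulated data. Replicates differed by more than sampling noise (chi-square per degree of freedom 4.39 to 14.4). Every gene of the symbol rule could be named, with values per library for the catalytic subunits, the inducible subunits, the activators and the 2 largest changes per class and direction, and for other lists at most 4 genes that passed plus Nfe2l1 and Pomp. The members and all gene lists were chosen with earlier results of these data known. For some genes of the other lists no result is reported here.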

Additional observations from a re-analysis of the deposited data

How the results depend on the processing

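The number of members that passed as lower was 29 (28 without Psmc3ip, which is no proteasome gene) and lay between 18 and 30 over the alternatives. It was 22 to 27 when single libraries were left out, 28 with DESeq2, 21 at an FDR of 0.01 and 18 with the correction on the principal transcript, which was chosen after seeing the data. Of the 31 calls, 11 were kept in all 18 alternative fits (Psmb1, Psmb4, Psmb5, Psmb7, Psmc1, Psmc2, Psmc4, Psmc5, Psmd13, Psmf1 and Psmc3ip), and 36 members lay below 0 in every one. The number that passed as higher was 2, and it was 1 at an FDR of 0.01, with the length and GC correction (with a replicate block or without), with the correction on the principal transcript, and 1 to 2 when single libraries were left out. The cause of these changes was not tested.

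The length and GC correction, the same with a replicate block and the correction on the principal transcript moved the medians of the classes, given here in that order. They were -0.12, -0.12 and -0.12 for constitutive beta subunits, 0.047, 0.049 and 0.073 for the inducible ones, -0.14, -0.14 and -0.14 for ATPases, 0.0040, 0.0040 and -0.0034 for activators, -0.16, -0.15 and -0.14 for core assembly, -0.18, -0.18 and -0.15 for regulatory assembly and -0.12, -0.12 and -0.092 for all members. The difference of core minus regulatory medians was 0.0044, 0.0046 and 0.0021. The median of the other regulatory subunits was -0.068 with the correction on the principal transcript and -0.11 to -0.069 when single libraries were left out. In the same order, log2 fold changes changed sign for Psmc6 (-0.13, -0.13, -0.11), Psmd1 (-0.12, -0.12, -0.068), Psmd11 (-0.24, -0.24, -0.015), Psmd5 (-0.14, -0.14, -0.15) and Psme1 (0.011, 0.011, 0.018), and for Psme3 with the first 2 (0.0040 and 0.0040). With 1 library left out, Psma1 ranged from -0.036 to 0.0023 (above 0 without CHD4-APR replicate 1), Psmb9 from -0.030 (without CTRL replicate 3) to 0.13 and Psmd14 from -0.062 to 0.033 (above 0 without CTRL replicate 2, and at 0.015 and 0.0097 without CHD4-APR replicates 1 and 2). Of these, Psmc6 and Psme1 had passed the test. Over all genes, 2939 passed with the correction on the principal transcript, 1308 as lower at an FDR of 0.01, and 1517, 1715 and 1284 as higher with the 3 corrections. Genes of the other lists that passed numbered 39, and 25 at an FDR of 0.01. The inducible share of catalytic transcripts was 2.24% in CTRL and 2.39% in CHD4-APR libraries per kilobase of the principal transcript.

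Same-numbered libraries of the 2 groups had correlations of 0.070, 0.055 and -0.035 in their deviations from the group means. Those of differently numbered libraries lay between -0.081 and 0.034. The labels do not say whether same-numbered libraries were handled together, and these values cannot decide it. A replicate block gave 5214 genes in place of 4871 and kept the members' counts at 29 lower and 2 higher. Psmb8, Psmb11 and Psma8 had too few counts to test.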

Other observations

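Ubiquitin genes and the receptors that bring ubiquitin-tagged proteins to the proteasome were also measured. Rps27a, which encodes ubiquitin fused to a ribosomal protein, passed as lower with CHD4-APR (log2 fold change -0.29, FDR 2.80e-04 by edgeR's quasi-likelihood test), and so did the polyubiquitin gene Ubb (-0.18, 0.00643). Uba6, an E1 enzyme, had 7.67, 11.0 and 10.5 normalized CPM in the CTRL and 14.0, 14.6 and 15.0 in the CHD4-APR libraries (log2 fold change 0.57, standard error 0.11, FDR 5.25e-04 by edgeR), and it was 0.21 and did not pass after the length and GC correction. After that correction Rps27a passed as lower (-0.33) and Ubb did not pass (-0.037).

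Of 13 tested shuttle receptors and cofactors of VCP, the segregase that pulls ubiquitin-tagged proteins out of complexes, 4 passed as lower and 5 as higher, beside 17.8% and 20.4% of all genes tested. Ubqln2, a shuttle receptor, had 24.0, 23.2 and 28.2 normalized CPM in the CTRL and 34.3, 33.6 and 32.7 in the CHD4-APR libraries (log2 fold change 0.42, standard error 0.071, FDR 2.47e-04 by edgeR), and after the length and GC correction it was 0.46 and passed. Its relative Ubqln1 had 0.22 (FDR 0.00146 by edgeR) and 0.16 after the correction, where it passed too. The VCP cofactor Ubxn7 had 0.41 (FDR 3.22e-05 by edgeR) and did not pass after the correction (0.044), and Ubxn1 had -0.32 (FDR 2.70e-04 by edgeR) and passed as lower after it (-0.25).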
